A study of Xenopus laevis with 8 samples.

Results

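The chromatin remodelling and histone modifying genes examined here are those whose symbol on the array begins with *hdac*, *kdm*, *kmt*, *smarc*, *chd*, *dnmt*, *tet*, *ezh*, *cbx*, *prmt*, *setd*, *brd*, *ing*, *kat* or *arid* followed by a number (or, for *smarc*, by a letter), together with *eed*, *suz12*, *rnf2*, *hells* and *uhrf1*. The symbols chose the members. No measured value entered the rule, but the list was chosen with earlier results of these data known. Of 15491 probe sets tested, 69 carried 1 such symbol. They read 55 gene copies, 32 of the .L and 22 of the .S subgenome with *suz12* listed under no ending, and these belong to 47 genes. No *tet* gene was among them. In the RefSeq gene table of the same species 184 genes fit the rule, so the annotated probe sets name a minority of the class. A further 2 probe sets carried both copies of *cbx3* or of *ing5* as symbols and were left out.

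The arrays were made from *Xenopus laevis* animal caps, the ectoderm at the top of the blastula, which forms epidermis when cultured alone. EFTF caps came from embryos that received RNA for 7 eye field transcription factors (*rax*, *pax6*, *six3*, *six6*, *otx2*, *tbx3* and *nr2e1*), and GFP caps from embryos that received RNA for a fluorescent protein only. The RNA was injected at the 2-cell stage, caps were cut at stage 9 and grown until siblings reached stage 15, an age of open neural plate, and each group had 4 arrays. The comparison asks which transcripts the injected factors change in cells that would otherwise become skin. By the methods of the study both groups received Venus YFP RNA, where the labels say GFP, and each array holds RNA pooled from several caps. The culture methods describe embryos with a Venus YFP transgene. Whether the caps used for the arrays carried it is not stated apart. The injected RNAs are not restricted to a cell type, and the factors cannot be separated from each other because all were given together.

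Chromatin regulators act in multi-protein complexes. Polycomb repressive complexes methylate histone H3 and ubiquitylate histone H2A at silent developmental genes, and heterochromatin proteins of the HP1 family bind another methyl mark on H3. Deacetylases, demethylases and methyltransferases remove or add further marks, while ATP-driven remodellers of the SWI/SNF, ISWI and CHD families slide or evict nucleosomes. Many of these proteins are abundant in dividing progenitors, and DNA methylation in particular has to be copied at each round of replication.

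Both the array set and the tissue were checked before the members were read. *otx2.L*, one of the injected factors, read 9.21, 9.33, 9.73 and 9.51 log2 units in EFTF caps 1 to 4 and 6.30, 6.00, 6.06 and 5.53 in GFP caps 1 to 4. By the paper its *otx2* probe set does not detect the injected RNA, so this reading may be of the endogenous gene. In *otx2.L* GFP replicate 1, whose source label says EFTF against its title, lay with the other GFP arrays. Over all probe sets it correlated with EFTF replicate 1 at 0.983 and with GFP replicates 2 to 4 at 0.977, 0.977 and 0.961. Its correlations with EFTF replicates 2 to 4 were 0.958, 0.929 and 0.915. The summed linear intensity of the neural plate markers was 1568 in GFP replicate 1 and 648, 749 and 975 in the other GFP arrays. In EFTF caps this sum was 4106 to 7715. All levels are log2 RMA intensities. Of 18 neural plate markers 14 had a higher mean in EFTF caps and 8 passed the threshold upward (10 in a fit with the replicate number as a block, the replicate block), with *cdh2.L* 4.08, *sox3.S* 3.69, *msi1.L* 3.45 and *ncam1.S* 3.01 log2 units higher. All 15 multiciliated cell and ionocyte markers had a lower mean in EFTF caps and 3 passed downward, *foxi1.L* by -2.02, *ccdc78.S* by -1.97 and *ubp1.L* by -1.84, while 12 passed downward with the replicate block. Of 17 epidermis markers 13 had a lower mean and 1, the keratin *krt19.S*, passed upward at 2.56. With that block 2 epidermis markers also passed downward, *grhl1.L* by -0.63 (adjusted p = 0.0453) and *cdh1.S* by -0.82 (0.0266). Mesoderm and endoderm markers showed no call in 18 probe sets, 9 of them higher and 1 with an unadjusted p under 0.05 (limma), and their summed linear intensity was 141 to 182 in EFTF caps and 148 to 187 in GFP caps. Only 9 of the 18 were above background on at least 4 arrays and 5 on none, so a call was hard to reach. Differences ran from -1.13 for *a2m.S* to 1.03 for *gsc.L*. *gsc.L* read 4.99, 4.44, 5.18 and 2.79 in EFTF caps and 3.26 to 3.42 in GFP caps. In bulk caps fewer cells of a type and less RNA per cell cannot be told apart.

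The chromatin genes mostly had higher means in EFTF caps, by a small amount per gene. The mean was higher in EFTF caps for 58 of the 69 probe sets (84.1%, against 54.1% of all probe sets tested). Their median difference, EFTF minus GFP, was 0.39 log2 units, against 0.02 over all probe sets. The difference reached 1.5-fold upward in 24 members (34.8%, against 8.14% of all) and 1.5-fold downward in none, against 7.98% of all. At the 2-fold level 2 members were higher (2.9%, against 2.76% of all) and 0 lower (0%, against 3.84% of all). Differences ran between -0.55 for *brd2.S* and 1.27 for *chd4.L*. The list is described by these counts and medians only, and no test was made of the list as a whole.

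**Figure D1:**
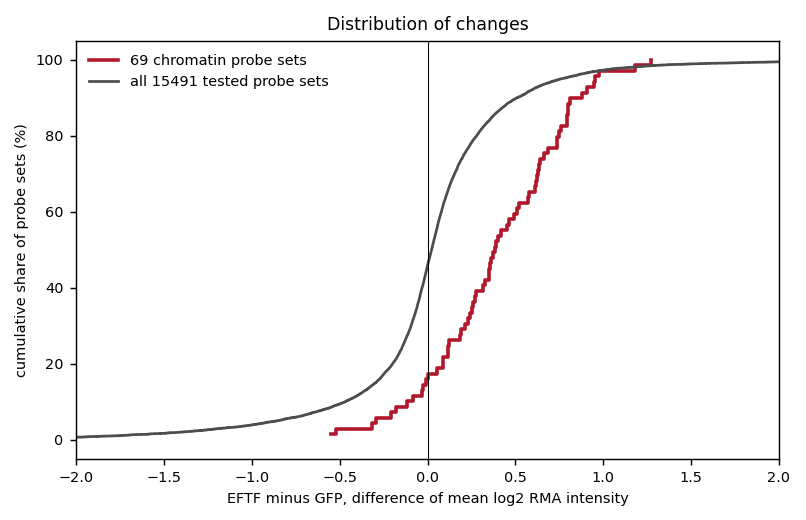
Cumulative share of probe sets (vertical axis, %) against the difference EFTF minus GFP in mean log2 RMA intensity (horizontal axis), for the 69 chromatin probe sets (red) and all 15491 tested (grey). The red curve lies to the right over most of its length, with a median of 0.39 against 0.02, and meets the grey curve near a difference of 1.

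Few single members passed the test. In the limma fit without a block 1 of 69 members was called, which is 1.45% where 1.42% of all probe sets were called in either direction and 0.762% upward. That share does not stand above the background. The called member was *brd7.L*. An unadjusted p under 0.05 was seen for 23 members upward and for 1 downward. The upward share was 33.3%, against 9.3% of all probe sets and 11.8% of those above background on all 8 arrays. All 4 EFTF arrays lay above all 4 GFP arrays for 12 members (17.4%, against 5.42% of all and 6.16% of that brighter set). The opposite order was seen for 0 members (background 4.75%). EFTF replicate 1 bore most on these counts: without it the unblocked fit called 11 members upward (15.9%, against 2.62% of all probe sets) and 25 did not overlap (36.2%, against 10.2%). Calls also increased over all probe sets, to 406 upward in place of 118. Leaving out any other single array left 0 members called, with 0.142% to 0.439% of all probe sets called upward. Without GFP replicate 4, 19 members did not overlap (27.5%, against 10.1%).

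The replicate numbers of the 2 groups were taken as pairs, because deviations of the arrays with 1 number correlated, least for number 3 (r = 0.22). The labels do not say that they are pairs. The fit with the replicate block called more. It called 11 members upward (15.9%, background 4.91%) and 0 downward (background 5.25%), with an unadjusted p under 0.05 for 35 upward and 1 downward. Of all 15491 probe sets 4350 had an unadjusted p under 0.05 in this fit in either direction, against 2677 without the block. The blocked calls rested on having all of replicates 2 to 4. Without replicate 1 of both groups 18 members were called upward (26.1%, against 5.86% of all probe sets). Without replicate 2, 3 or 4 there were 0, and calls were lost over the whole array, with 0%, 0.181% and 0% of all probe sets called upward. In these 3 fits 25, 24 and 27 members had an unadjusted p under 0.05 upward. The share over all probe sets was not taken, so these counts cannot be read as a shift of the members. A fit with replicate 4 as a batch of its own called 5 members upward (background 2.50%), namely *brd7.L*, *hells.L*, *smarcd1.L*, *prmt5.L* and *kdm1a.S*. Below, "rose" refers to the blocked fit unless another is named, and the SE of a difference comes from the fit whose adjusted p is given first.

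**Figure D2:**
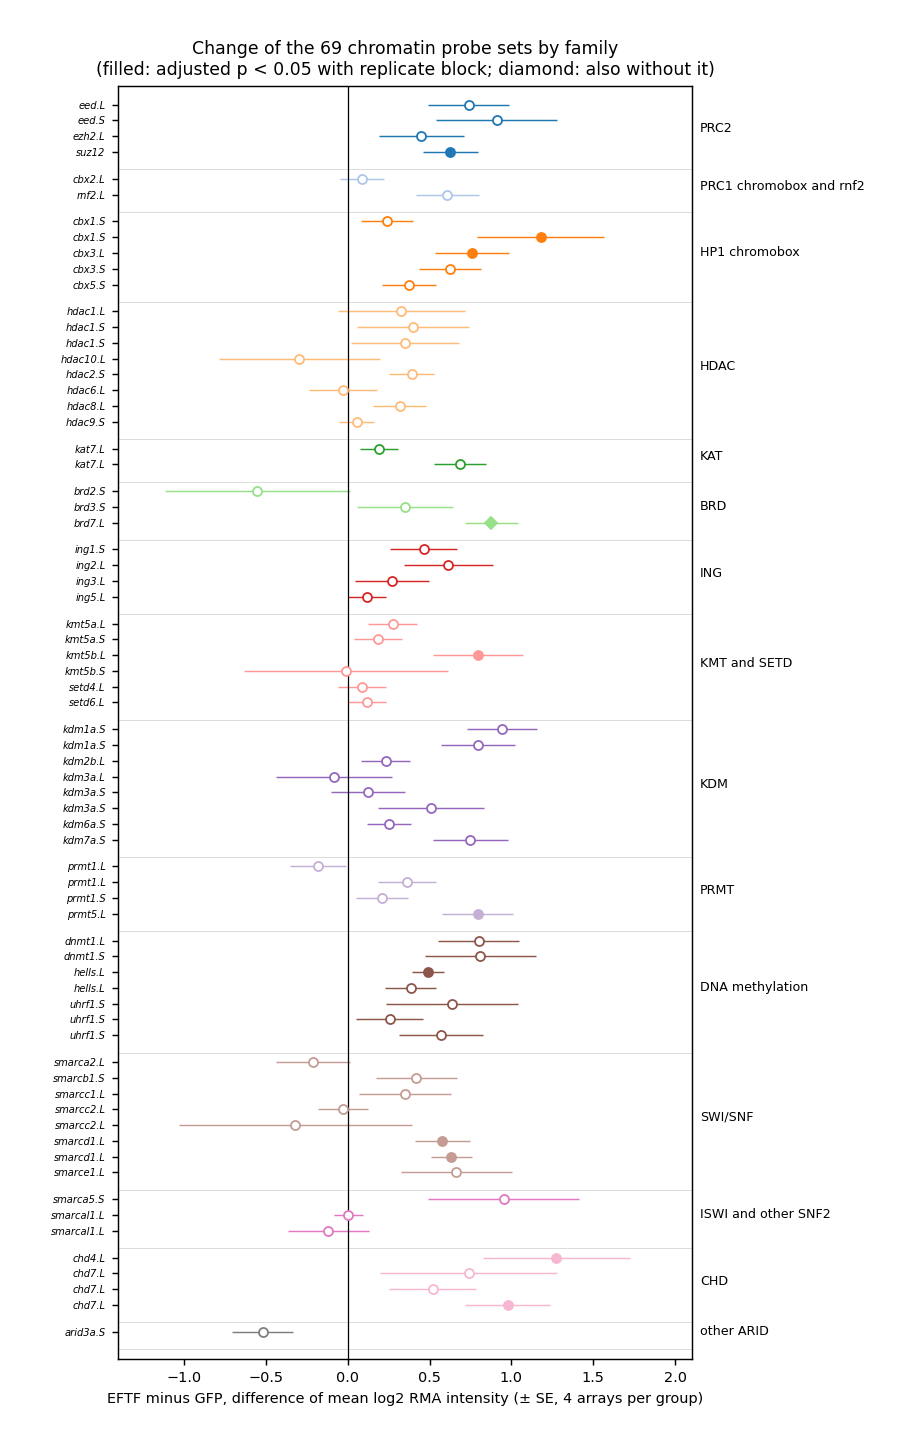
Difference EFTF minus GFP in mean log2 RMA intensity for each of the 69 chromatin probe sets (horizontal axis, bars ± SE of the fit without a block, 4 arrays per group), ordered by family down the page. Filled symbols passed an adjusted p of 0.05 with the replicate block, the diamond (*brd7.L*) also without it, and 58 of the 69 points lie right of 0.

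The shift differed between replicates. Within replicate numbers 1 to 4 the median difference of the members was 0.08, 0.30, 0.66 and 0.40 log2 units, with 46, 58, 55 and 61 of 69 higher in the EFTF array, against medians of -0.03, 0.02, 0.05 and 0.04 over all probe sets. Replicate 1 thus showed the smallest difference of the members and replicate 3 the largest. In all 4 number pairs 33 members were higher in the EFTF array (47.8%, against 19% of all probe sets) and 0 were lower (against 16.5%). The same replicate was smallest for the neural plate markers, whose median differences were 0.66, 2.41, 3.17 and 2.34, and for the genes of the injected factors (0.68, 1.61, 2.29 and 2.24). By the paper several of the latter are read from the endogenous genes, so these medians are not doses of injected RNA.

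Cell cycle markers moved with the members. Of 23 such probe sets 21 had a higher mean in EFTF caps with a median difference of 0.87 log2 units. None was called without the block, although 15 had an unadjusted p under 0.05 upward, and 9 were called upward with it. Among these, the replication helicase subunits *mcm4.L* (1.77 ± 0.30, SE, limma blocked adjusted p = 0.0299) and *mcm5.L* (1.57 ± 0.26, 0.0286) and the cyclin *ccna2.L* (1.89 ± 0.37, 0.0378) were higher in EFTF caps. The summed linear intensity of the list was 4018 to 7822 in EFTF caps and 2498 to 3536 in GFP caps, with no overlap. Its median difference within replicates 1 to 4 was 0.17, 0.94, 1.53 and 1.14, again smallest in replicate 1 and largest in replicate 3. The part of the cell cycle, of the neural markers and of the lower ciliated cell markers in the change of the chromatin genes was not tested.

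**Figure D3:**
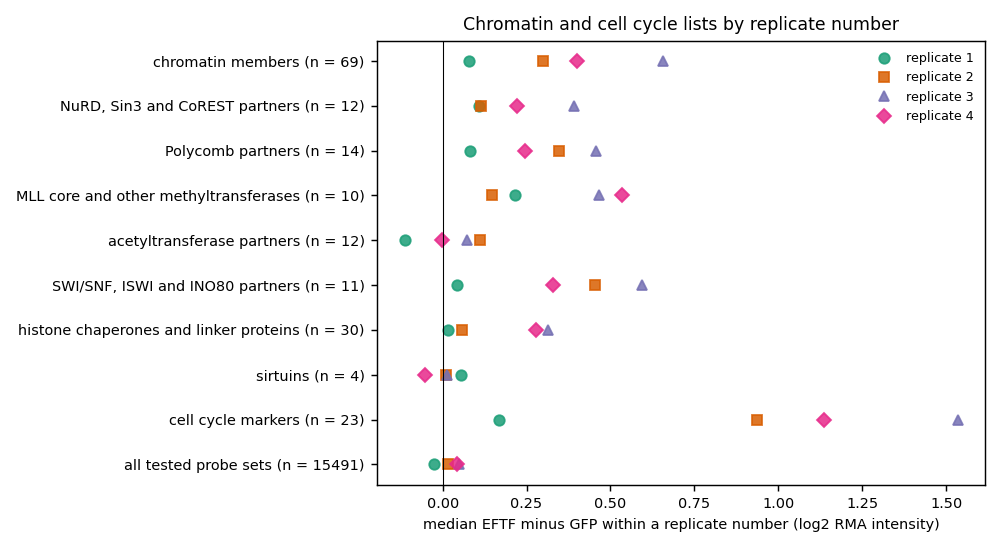
Median difference EFTF minus GFP (horizontal axis, log2 RMA intensity) within each replicate number for the chromatin members, for lists of their partners, for cell cycle markers and for all probe sets. For the members the medians are 0.08, 0.30, 0.66 and 0.40 in replicates 1 to 4 and for the cell cycle markers 0.17, 0.94, 1.53 and 1.14, while the medians over all probe sets stay within 0.05 of 0.

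Polycomb members had a higher mean in EFTF caps in all 6 probe sets, of which 1, *suz12*, was called with the block and none without it. The 4 probe sets of Polycomb repressive complex 2, which deposits the repressive methyl mark, had a median difference of 0.68 log2 units. *suz12*, a subunit the complex needs for its stability, read 8.75, 9.22, 9.34 and 9.32 in EFTF caps and 8.52, 8.36, 8.43 and 8.82 in GFP caps. EFTF replicate 1 lay just below GFP replicate 4, and the other EFTF arrays lay above all GFP arrays. It rose by 0.63 ± 0.14 (SE, limma blocked adjusted p = 0.0495, unblocked 0.105). *eed.S*, the subunit that reads the mark, read 4.72, 5.75, 6.34 and 6.26 in EFTF caps and 4.37, 5.11, 4.73 and 5.22 in GFP caps, a difference of 0.91 ± 0.37 that did not pass (adjusted p = 0.253, blocked 0.0530). Its EFTF replicate 1 lay within the GFP range. *eed.L* and the catalytic subunit *ezh2.L* had differences of 0.74 and 0.45, neither of them called.

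Polycomb repressive complex 1 was read by *cbx2.L*, a chromobox subunit near background, and by *rnf2.L*, its ubiquitin ligase. *rnf2.L* read 8.73, 8.74, 9.22 and 9.05 in EFTF caps and 8.08, 8.66, 8.54 and 8.02 in GFP caps. The groups did not overlap, with a gap of 0.07 log2 units between them, and the difference of 0.61 ± 0.19 was not called (adjusted p = 0.151, blocked 0.0736). Among 14 partners of the Polycomb complexes, a list that holds no member, 13 had a higher mean in EFTF caps (median 0.24), 0 were called without the block (4 at an unadjusted p under 0.05) and 2 rose with it. These were *pcgf2.S* (1.75 ± 0.24, blocked adjusted p = 0.0262) and *bmi1.S* (0.79 ± 0.17, 0.0424), both RING finger partners of *rnf2*.

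Heterochromatin protein genes gave some of the larger differences. All 5 probe sets of the HP1 chromobox genes had a higher mean in EFTF caps, with a median difference of 0.62. *cbx3.L*, which encodes the HP1 gamma protein, read 10.61, 10.43, 11.02 and 11.30 in EFTF caps and 10.29, 9.76, 9.90 and 10.37 in GFP caps. Every EFTF array exceeded every GFP array, and it rose by 0.76 ± 0.15 (blocked adjusted p = 0.0380, unblocked 0.134). One probe set of *cbx1.S*, HP1 beta, read 4.94, 6.64, 6.23 and 6.33 in EFTF caps and 4.51, 4.88, 4.51 and 5.53 in GFP caps. It rose by 1.18 ± 0.25, or 2.26-fold, with the block (adjusted p = 0.0439, unblocked 0.168), and EFTF replicate 1 lay within the GFP range. A dimmer probe set of the same copy differed by 0.24 and was not called. The probe set annotated to both copies of *cbx3* differed by 0.69 ± 0.21 (adjusted p = 0.147). *cbx5.S*, HP1 alpha, averaged 3.39 in EFTF caps and 3.02 in GFP caps, close to background.

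Histone deacetylases gave no call. Of 8 probe sets 6 had a higher mean in EFTF caps, the median difference was 0.32, the range -0.29 to 0.40, and none was called with or without the block (1 at an unadjusted p under 0.05). The brighter probe set of *hdac1.S*, a class I deacetylase and catalytic subunit of several corepressor complexes, read 7.63, 6.81, 7.89 and 8.24 in EFTF caps and 7.77, 6.79, 7.11 and 7.50 in GFP caps. The groups overlapped over most of their range, and the difference was 0.35 ± 0.33 (adjusted p = 0.681). *hdac10.L*, known in mammals as a polyamine deacetylase, had the lowest difference of the family at -0.29 ± 0.49 (adjusted p = 0.847) and followed the replicate number more than the group. *hdac9.S* was not above background on any array.

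Partners of the deacetylases in the NuRD, Sin3 and CoREST corepressors had a higher mean in EFTF caps in 10 of 12 probe sets, with a median of 0.15. None was called without the block (4 at an unadjusted p under 0.05), and 2 rose with it. *rcor2.L*, a CoREST scaffold that holds the demethylase *kdm1a* and class I deacetylases, read 6.14, 7.91, 8.14 and 8.79 in EFTF caps and 5.43, 4.91, 4.77 and 5.67 in GFP caps. All EFTF arrays were higher, and the difference of 2.55 ± 0.45 (blocked adjusted p = 0.0308, unblocked 0.0576) was the highest of any chromatin list. The corepressor *ncor1.S* rose by 0.79 ± 0.18 (0.0490). The 4 sirtuin probe sets had differences of -0.13 to 0.20 with 1 higher, and none had an unadjusted p under 0.05.

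The CHD remodellers had the highest family median, 0.86 over 4 probe sets of 2 genes, all with a higher mean in EFTF caps. *chd4.L*, the ATPase of NuRD, read 6.41, 7.49, 8.35 and 8.02 in EFTF caps and 5.70, 6.11, 6.26 and 7.10 in GFP caps. Each EFTF array exceeded the GFP array of its own number, although EFTF replicate 1 lay below GFP replicate 4. The difference of 1.27 ± 0.23, or 2.42-fold, was the widest of the members and passed only with the block (adjusted p = 0.0325, unblocked 0.193). *chd7.L*, whose human counterpart is mutated in CHARGE syndrome, was read by 3 probe sets. The brightest gave 7.96, 7.93, 8.49 and 8.30 in EFTF caps and 7.53, 6.63, 6.91 and 7.71 in GFP caps, without overlap, and rose by 0.98 ± 0.22 (blocked adjusted p = 0.0457, unblocked 0.103). The other 2 probe sets differed by 0.74 and 0.52 in the same direction and were not called.

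SWI/SNF subunits split. Of 8 probe sets 5 had a higher mean in EFTF caps and 3 a lower one, with a median of 0.39. *smarcd1.L*, an accessory subunit that links the complex to transcription factors, was called with the block by both of its probe sets. The brighter read 10.83, 10.95, 11.17 and 10.91 in EFTF caps and 10.56, 10.23, 10.23 and 10.31 in GFP caps. The groups did not overlap, and it rose by 0.63 ± 0.13 (blocked adjusted p = 0.0421, unblocked 0.0504). The second probe set read 8.27, 8.74, 9.06 and 8.76 in EFTF caps and 8.05, 8.14, 8.30 and 8.03 in GFP caps and rose by 0.58 ± 0.13 (0.0446), with EFTF replicate 1 just below GFP replicate 3. *smarce1.L* had the largest positive difference of the family at 0.66 ± 0.34 (adjusted p = 0.374), which was not called. The 3 lower probe sets were *smarca2.L*, the BRM ATPase, at -0.21 and both probe sets of the core subunit *smarcc2.L* at -0.32 and -0.03, none with an unadjusted p under 0.05.

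*brd7.L*, a bromodomain subunit of the PBAF form of SWI/SNF, was the single member called without a block. It read 7.93, 8.13, 8.46 and 8.36 in EFTF caps and 7.64, 7.38, 7.09 and 7.26 in GFP caps. All EFTF arrays lay above all GFP arrays, the closest being the replicate 1 arrays. The difference was 0.88 ± 0.16, or 1.84-fold (adjusted p = 0.0477, blocked 0.0440). The call was at the edge of the threshold: without EFTF replicate 2, 3 or 4, or any 1 GFP array, the unblocked adjusted p was above 0.05, at most 0.148. The BET family genes *brd2.S* and *brd3.S*, readers of acetylated histones, were not called. *brd2.S* had the lowest difference of the members, -0.55 ± 0.56 (adjusted p = 0.711), and *brd3.S* differed by 0.35 ± 0.29 (0.634).

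ISWI and other SNF2 proteins were read by 3 probe sets. Their median difference of 0.00 was that of a *smarcal1.L* probe set not above background on any array, so it says little of the family. *smarca5.S*, the ISWI ATPase, read 3.86, 3.96, 4.75 and 6.02 in EFTF caps and 3.94, 3.37, 3.40 and 4.06 in GFP caps. EFTF replicates 3 and 4 stood above all GFP arrays and EFTF replicates 1 and 2 did not, and the difference of 0.95 ± 0.46 was not called (adjusted p = 0.341, blocked 0.125). *smarcal1.L*, an annealing helicase at replication forks, differed by -0.12 ± 0.25 in its brighter probe set, and its other probe set was not above background on any array. Among 11 partners of the SWI/SNF, ISWI and INO80 complexes 10 had a higher mean in EFTF caps (median 0.27), 0 were called without the block (1 at an unadjusted p under 0.05) and 1 rose with it, *baz2a.L* by 0.69 ± 0.15 (blocked adjusted p = 0.0474, unblocked 0.563). This list does not hold *ruvbl1.S* and *ruvbl2.S*, ATPases of INO80 that were both called downward (-1.38 and -0.70). They are counted below with the acetyltransferase partners, and *actl6a.S* is counted in both lists.

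Acetylation machinery was thinly covered by the members. *kat7.L*, an acetyltransferase active at replication origins, was the only *kat* gene, with 2 probe sets. The brighter read 8.59, 8.61, 9.12 and 8.68 in EFTF caps and 8.18, 8.28, 7.90 and 7.89 in GFP caps. The groups did not overlap, and the difference of 0.69 ± 0.16 missed the threshold (adjusted p = 0.0750, blocked 0.0587). The dimmer probe set differed by 0.19 ± 0.12, with overlapping groups, and was not called (adjusted p = 0.477, blocked 0.302). All 4 ING genes, which encode PHD finger subunits of acetyltransferase and deacetylase complexes, had a higher mean in EFTF caps (median 0.37). *ing2.L* gave the highest of these, 0.62 ± 0.27 (adjusted p = 0.297). No ING probe set had an unadjusted p under 0.05. The probe set annotated to both copies of *ing5*, left out of the members, was lower in EFTF caps at 4.67 than in GFP caps at 4.90, a difference of -0.24 ± 0.16 (adjusted p = 0.542), where *ing5.L* differed by 0.12.

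The list of acetyltransferase partners did not share the upward shift. It also holds acetyltransferases outside the rule, *crebbp.L* (-0.04), *crebbp.S* (-0.24) and *hat1.L* (0.30), none of them called. Of 12 probe sets 6 had a higher and 6 a lower mean in EFTF caps, the median was 0.03, and 2 were called downward without the block. *ruvbl1.S*, an AAA ATPase of the TIP60 and INO80 complexes, read 6.14, 6.23, 5.85 and 5.60 in EFTF caps and 7.18, 7.34, 7.05 and 7.76 in GFP caps. All EFTF arrays were lower, and it fell by 1.38 ± 0.20 on the log2 scale (adjusted p = 0.0223). Its partner ATPase *ruvbl2.S* fell by 0.70 ± 0.13 (0.0462). With the block 3 were called downward and 1 upward, the upward one being *morf4l1.S*, a chromodomain subunit of TIP60, at 1.63 ± 0.21 (0.0238, unblocked 0.217).

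The probe sets of the *kmt* and *setd* genes had a median difference of 0.15, with 5 of 6 higher. Among them *kmt5a.S*, *setd4.L* and *setd6.L* averaged 3.30, 2.93 and 3.31 in EFTF caps, close to background. Other histone methyltransferases are counted elsewhere, *ezh2.L* with Polycomb and *suv39h1.L* and *setdb1.L* in the list that follows. *kmt5b.L*, which adds further methyl groups to a histone H4 residue, read 5.47, 6.15, 6.02 and 6.50 in EFTF caps and 4.58, 5.53, 5.48 and 5.36 in GFP caps. Each EFTF array exceeded the GFP array of its own number by at least 0.54 log2 units, but EFTF replicate 1 lay within the GFP range. It rose by 0.80 ± 0.13 with the block (adjusted p = 0.0282, unblocked 0.186). Its homoeolog *kmt5b.S* had no such difference, at -0.01 ± 0.12 with the block (blocked adjusted p = 0.978), where the SE without the block was 0.62. *setd4.L* was above background on only 2 of 8 arrays.

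Of 10 probe sets for the MLL core subunits and other methyltransferases, 9 had a higher mean in EFTF caps (median 0.35). None was called without the block (4 at an unadjusted p under 0.05), and 4 rose with it. The largest was *suv39h1.L*, which writes the mark that HP1 binds, by 1.34 ± 0.27 (blocked adjusted p = 0.0389). *hcfc1.S* (0.80 ± 0.13, 0.0275), *setdb1.L* (0.71 ± 0.14, 0.0364) and *cxxc1.S* (0.46 ± 0.10, 0.0458) were the other 3.

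Demethylase genes had a higher mean in EFTF caps in 7 of 8 probe sets, with a median of 0.38, and none was called with the block. *kdm1a.S*, the LSD1 demethylase of the CoREST complex, was read by 2 probe sets. The brighter probe set gave 7.93, 8.56, 8.75 and 8.83 in EFTF caps and 7.88, 7.41, 7.40 and 7.61 in GFP caps. The groups did not overlap, although the replicate 1 arrays differed by only 0.06, and the difference was 0.94 ± 0.21 (adjusted p = 0.0724, blocked 0.0572). With replicate 4 as a batch it passed (0.0492). The dimmer probe set of *kdm1a.S* differed by 0.79 ± 0.23, with overlapping groups, and passed in none of these fits (adjusted p = 0.123, blocked 0.0737, batch 0.0606). *kdm7a.S*, a PHD and JmjC domain demethylase, read 7.67, 7.65, 7.84 and 7.81 in EFTF caps and 7.03, 6.88, 6.43 and 7.63 in GFP caps, a difference of 0.75 ± 0.23 (adjusted p = 0.145, blocked 0.0714). EFTF arrays lay close together and above all GFP arrays, of which replicate 4 was the nearest. *kdm2b.L*, which joins a variant Polycomb complex, differed by 0.23 ± 0.15 and *kdm3a.L* by -0.08 ± 0.35.

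Among arginine methyltransferases 3 of 4 probe sets had a higher mean in EFTF caps, with a median of 0.29. *prmt5.L*, which makes symmetric dimethylarginine, read 5.23, 5.23, 5.81 and 5.95 in EFTF caps and 4.79, 4.39, 4.79 and 5.07 in GFP caps. All EFTF arrays were higher than all GFP arrays, and it rose by 0.79 ± 0.13 (blocked adjusted p = 0.0276, unblocked 0.111). *prmt1.L*, the main asymmetric enzyme in mammals, was read by 2 probe sets that differed in sign, 0.36 ± 0.18 for the brighter and -0.18 ± 0.17 for the other, neither of them called.

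DNA methylation genes had a higher mean in EFTF caps in all 7 probe sets, with a median of 0.57, and 1 of them was called with the block and none without it. *hells.L*, a SNF2 remodeller needed for DNA methylation of repeats in mammals, read 4.29, 4.37, 4.19 and 4.44 in EFTF caps and 3.73, 3.84, 3.87 and 3.90 in GFP caps. The groups did not overlap and each was tight, with SDs of 0.11 and 0.07. It rose by 0.49 ± 0.10 (blocked adjusted p = 0.0375, unblocked 0.0560). A dimmer probe set of *hells.L* differed by 0.39 ± 0.15, with overlapping groups, and was not called (adjusted p = 0.250, blocked 0.150). *dnmt1.L*, the maintenance methyltransferase, read 3.94, 4.58, 4.68 and 5.01 in EFTF caps and 3.93, 3.89, 3.28 and 3.92 in GFP caps. EFTF replicate 1 exceeded the highest GFP array by only 0.01, and the difference of 0.80 ± 0.25 was not called (adjusted p = 0.148, blocked 0.0840). *dnmt1.S* differed by a like amount, 0.81 ± 0.34, but was above background on only 2 GFP arrays. The 3 probe sets of *uhrf1.S*, which recruits *dnmt1* to newly copied DNA, differed by 0.64, 0.57 and 0.26, none called.

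Histone chaperones and linker proteins, which deliver or bind histones, were higher on average in 23 of 30 probe sets with a median of 0.08. None was called without the block (7 at an unadjusted p under 0.05) and 5 rose with it. The largest were *asf1b.L* (1.70 ± 0.30, blocked adjusted p = 0.0310), *nasp.S* (1.11 ± 0.23, 0.0408), *chaf1a.L* (1.06 ± 0.19, 0.0313) and *nasp.L* (0.93 ± 0.19, 0.0392), all chaperones of newly made histones. The fifth was *anp32b.L* (0.63 ± 0.14, 0.0486).

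*arid3a.S*, which encodes a DNA-binding protein with an AT-rich interaction domain, was the only member with an unadjusted p under 0.05 downward. It read 6.14, 6.25, 5.61 and 6.00 in EFTF caps and 6.12, 6.63, 6.68 and 6.65 in GFP caps. GFP replicate 1 lay within the EFTF range and 0.51 log2 units below the lowest of the other GFP arrays. The difference of -0.52 ± 0.18 was not called (adjusted p = 0.197, blocked 0.136).

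**Figure D4:**
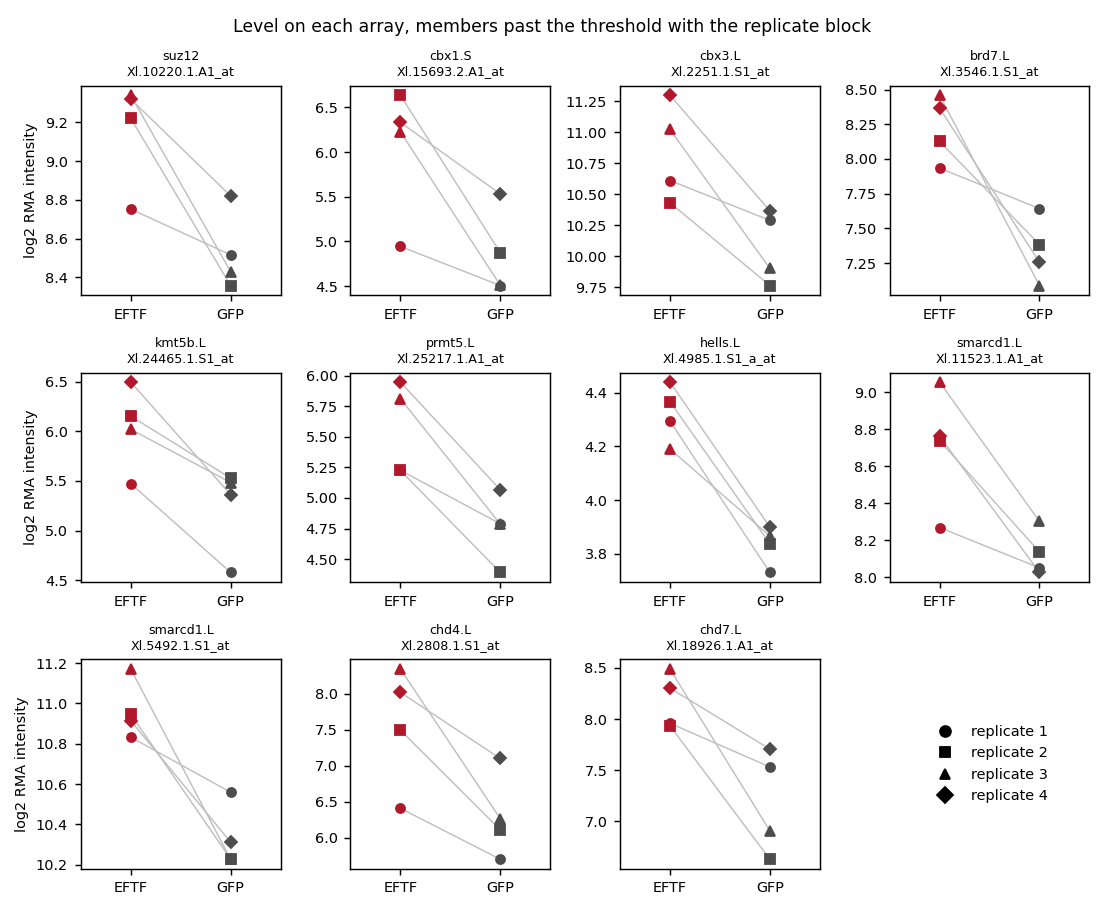
Level on each array (vertical axis, log2 RMA intensity, with its own scale in each panel) in EFTF caps (red, left) and GFP caps (grey, right) for the 11 probe sets called with the replicate block, with lines joining arrays of 1 replicate number. Every line runs downward to the GFP array, and in *chd4.L*, *cbx1.S*, *suz12*, *kmt5b.L* and the dimmer *smarcd1.L* probe set EFTF replicate 1 (circle) lies below at least 1 GFP array.

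Copies and repeat probe sets were set side by side. Of 12 gene copies read by more than 1 probe set, 10 had the same sign in all, the exceptions being *prmt1.L* and *smarcal1.L*. As 58 of the 69 members were higher, like signs are frequent in any case. The share over the array was not taken, so this count is a weak check. For 8 genes both homoeologs were read (*cbx3*, *dnmt1*, *eed*, *hdac1*, *kdm3a*, *kmt5a*, *kmt5b* and *prmt1*), and the change of .L was set against that of .S within each array. None of the 8 differences passed (background 0.885% of 1017 such pairs), and none had an unadjusted p under 0.05. The closest agreement in value was *dnmt1*, where the .L minus .S difference of changes was -0.01 (95% confidence interval -0.52 to 0.50). For *kmt5b* it was 0.81 (-0.27 to 1.88, adjusted p = 0.495), which passed with the replicate block (0.0426), and for *kdm3a* it was -0.59 (-1.28 to 0.10, adjusted p = 0.425). These intervals are wide beside the changes themselves. Copies of a gene are alike in sequence, and how far a probe set reads both cannot be told from the annotation.

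Several members followed the replicate number more than the injection. Averaged over the 2 arrays of a number, 46 of the 69 members spanned a wider range over the 4 numbers than the difference between groups (66.7%, against 83.8% of all probe sets), and 16 spanned over 1 log2 unit (23.2%, against 16.1%). The first share lies below that of the array, and a range over 4 numbers can exceed a difference of 2 groups by noise alone. *smarcc2.L* averaged 9.47, 8.02, 8.08 and 6.63 over numbers 1 to 4, a range of 2.84, and its group difference was -0.32. *kmt5b.S* averaged 4.89, 5.47, 5.67 and 7.27, a range of 2.38 beside a group difference of -0.01. Within each number the EFTF and GFP arrays of both genes differed by much less than these ranges. *brd2.S* and *hdac10.L* were high in numbers 1 and 4 and low in 2 and 3, with ranges of 1.88 and 1.55. What the replicate number stands for, such as a female or a day, is not given for each array.

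**Figure D5:**
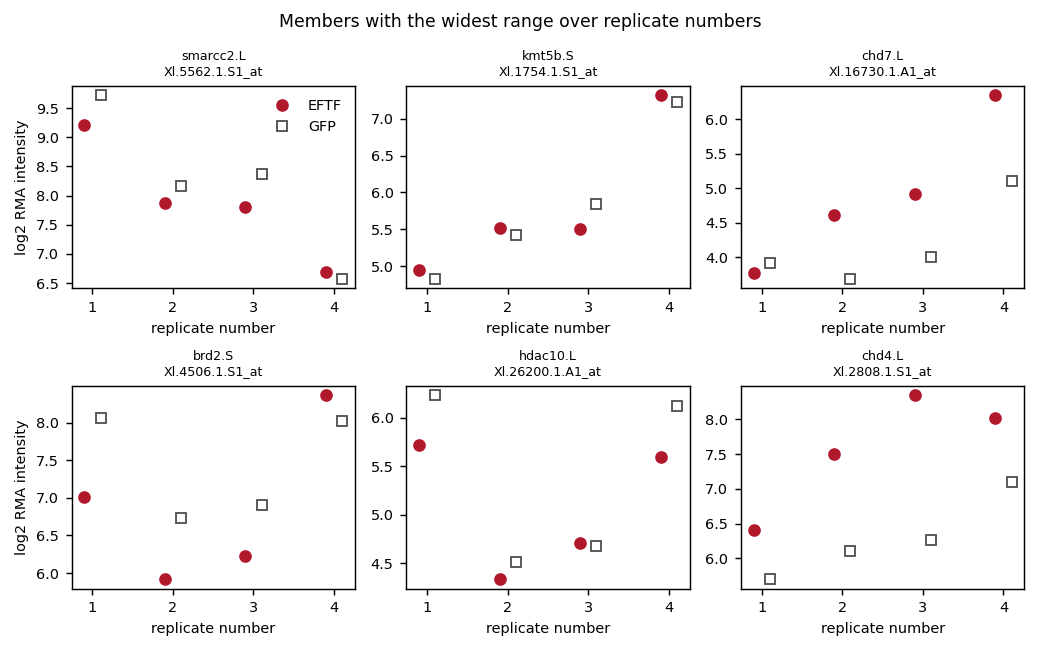
Level on each array (vertical axis, log2 RMA intensity) by replicate number (horizontal axis, numbers carry no order) in EFTF caps (red circles) and GFP caps (open grey squares) for the 6 members with the widest range over numbers. In *smarcc2.L* (range 2.84) and *kmt5b.S* (range 2.38) both groups move together over the numbers, whereas *chd4.L* also shows the EFTF array above the GFP array in each.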

How the data were processed

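RNA from 4 EFTF and 4 GFP samples was read on the Affymetrix *X. laevis* GeneChip. The authors preprocessed the scans with RMA (version not given in the sources used here) and deposited linear intensity values, and whether a later scaling step named in the methods is in them is not stated. RMA pulls dim values together, so changes of dim probe sets are understated. Intensities were turned into log2 with no pseudocount and no further scaling. Array medians of linear intensity were 16.8 to 18.9. The number of arrays limits the precision, and the median SE of a difference was 0.22 for members and 0.18 for all probe sets.

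Of 15611 probe sets 120 were controls. The array annotation gave 1 symbol for 9304 of the rest, several for 195 and none for 5992. By gene ID, 68 of 69 member probe sets matched the RefSeq table of Xenopus_laevis_v10.1, and no symbol changed. Coordinates and sequences were not used here. Background on an array was the highest of 17 tag control probe sets, and 66 members exceeded it on at least 4 arrays and 2 on none. Low probe sets were kept.

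Groups and replicate numbers came from the sample titles. The series calls the replicates biological, while the methods describe triplicates over days and females, so p-values measure the spread between these arrays. EFTF arrays were set against GFP arrays in a two-sided moderated fit (lmFit, then eBayes, of limma 3.58.1 under R 4.3.3), adjusted by Benjamini-Hochberg over 15491 probe sets with a threshold of 0.05, and the fit was tested on simulated data. In a separate fit of the same kind, homoeologs were compared through the .L minus .S difference within each array. The brightest probe set stood for a copy, and p-values were adjusted over the 1017 pairs. Deviations from the group means correlated between EFTF and GFP arrays of the same number with r = 0.44, 0.60, 0.22 and 0.64 over probe sets. All exceeded 0.1, so the numbers were taken as pairs and the value with the replicate block is printed where it changes a call. Between arrays of unlike number r was -0.45 to 0.28. GFP replicate 3 correlated more with EFTF replicate 2 (0.28) than with EFTF replicate 3 (0.22), so the pairing of number 3 is the least certain.

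Named members are those called in either fit, those with non-overlapping groups and a log2 difference of at least 0.5, and in each family the brightest and those with the largest positive and negative difference. Up to 4 called genes are named from each list, and any other name was chosen after its values were seen. The members and the lists (injected factors, neural plate, epidermis, ciliated cell and ionocyte, mesoderm and endoderm, cell cycle, and the partner lists) were chosen with earlier results of these data known. Of 12 probe sets of the injected factors 10 had a higher mean in EFTF caps and 4 were called. Alternatives covered the replicate block, a batch term, single arrays left out, scaling, pseudocount, a filter on dim probe sets, the variance model and an unpaired t-test.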

Additional observations from a re-analysis of the deposited data

Results flagged for a closer look

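In 3 of 70 groups of 4 arrays examined over the 35 named probe sets, 1 array stood apart from the other 3, and chance alone gives about 1 in 20 such groups. *kat7.L* read 9.12 in EFTF replicate 3, against 8.59 to 8.68 in the other EFTF arrays, so the array apart is on the side of its difference. *dnmt1.L* read 3.28 in GFP replicate 3, against 3.89 to 3.93 in the other GFP arrays. *arid3a.S* read 6.12 in GFP replicate 1, against 6.63 to 6.68 in the other GFP arrays, within the range of the EFTF arrays.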

How the results depend on the processing

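The upward shift of the members kept its direction in all settings run. Their median difference was 0.29 with a pseudocount of 16, 0.32 with equal array medians and 0.33 to 0.48 with 1 array left out, and 55 to 60 members were higher on average. Calls of single members did not hold in this way. With the replicate block 11 members were called in place of 1 (1575 in place of 220 over all probe sets, 54 in place of 9 homoeolog pairs), and with replicate 4 as a batch 5 (754 over all). With replicates 1 to 3 only there were 0 (18 over all, 22 members without overlap in place of 12, and 22 members with an unadjusted p under 0.05 upward in limma). Quantile normalization called 2 members (2.9%, against 1.01% of all probe sets called upward), and a pseudocount of 16 called 0 (92 over all). With that pseudocount 22 members had an unadjusted p under 0.05 upward in limma, and 2477 of all probe sets in either direction. The methods' t-test called 0 members and 2 probe sets in all. It gave an unadjusted p under 0.05 for 21 members upward and for 2250 of all probe sets in either direction. Leaving out 1 array gave 0 to 11 members, 25 to 702 probe sets in all, 13 to 25 members without overlap and 2 to 30 homoeolog pairs, with all 4 upper ends reached without EFTF replicate 1 (19 members without overlap without GFP replicate 4). Members without overlap upward were then 18.8% to 36.2% of the list, against 6.11% to 10.2% of all probe sets. Leaving out 1 number from both groups gave 0 to 18 members with the replicate block. Equal array medians called 124 probe sets higher and 170 lower in place of 118 and 102, and left 8 members without overlap (11.6%, against 4.11% of all probe sets). Of the 595 values of the 35 named probe sets under these settings 550 kept direction and side of the threshold, 24 gained and 11 lost a call, all 11 of *brd7.L*, and 10 changed sign when 1 array was left out. The sign changes concern small differences, *kmt5b.S* (-0.51 to 0.46), *kdm3a.L* (-0.40 to 0.21), *smarcc2.L* (-0.86 to 0.19) and *smarcal1.L* (-0.25 to 0.078). Causes were not tested. The median SE of 0.22 for members limits what 4 arrays a group can show for differences near their median of 0.39.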
